A study of Homo sapiens with 12 samples.

Results

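Solute carriers are the membrane proteins that move amino acids, sugars, ions, metals, vitamins and metabolites across the plasma membrane and the membranes of organelles. The genes described here are those whose symbol has the form SLC, a number, A and a number, and that appear in at least 1 of the 3 deposited tables of a cholangiocarcinoma experiment, leaving out the monocarboxylate family SLC16A and the cystine carrier SLC7A11. There were 78 of them among the 5308 genes in any table, after 6 symbols of the same form were left out. RefSeq holds 332 protein-coding symbols that fit this rule, and 77 of the 78 members matched one by symbol, all but SLC22A18. By class, 17 members were of the SLC25 family, called mitochondrial carriers here although SLC25A17 among them is peroxisomal. By substrate, 13 carried ions and protons, 10 carried sugars, 10 metals, 9 amino acids and 8 lipids, vitamins or choline. A further 6 carried nucleosides or nucleotide sugars and 5 carried organic ions or bile acids. None of the 22 RefSeq symbols assigned to peptide and neurotransmitter carriers, and none of the 13 of other classes, was in a table used here.

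The cells were KKU-213A, a human line of bile duct cancer (cholangiocarcinoma) with papillary and non-papillary parts, and each of the 4 groups had 3 libraries of polyadenylated RNA read as single ends of 75 nt. Control cells grew in low-glucose DMEM with serum and were otherwise untreated. Cells of the lactic acidosis group were brought stepwise into the same medium with L-lactate and the buffer HEPES, each at 25 mM, set to pH 6.7. The lactosis medium held 25 mM L-lactate at pH 7.4, and the acidosis medium held 25 mM HEPES at pH 6.5. All treated cells spent 5 or more passages in their medium. Acid and the buffer came together in these media, so their parts cannot be told apart, and neither can a treatment and the time spent in it. The labels name no separate cultures behind the libraries of a group, so every p-value here measures the spread between these libraries, which may be technical. The 3 treated groups were each set against the same 3 control libraries.

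As background, an acid medium bears on carriers directly, because many are driven by proton, sodium or bicarbonate gradients. Cells that face acid keep their internal pH with sodium-proton exchangers of the SLC9 family and bicarbonate carriers of the SLC4 family. Amino acid carriers are under transcriptional control by the stress factor ATF4, whose binding sites include the amino acid response element. Zinc exporters and the zinc-binding metallothioneins are under control by the metal sensor MTF1, which binds the metal response element. SLC25 proteins of the inner mitochondrial membrane exchange the substrates and cofactors of the citric acid cycle, the urea cycle and one-carbon metabolism with the cytosol.

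Each table lists genes that the authors called, whose probability of equal expression in treated and control cells was under 0.05, so a gene that is not in a table was not analysed for that treatment and was not shown to be unchanged. Values per library were treated as expression values scaled by gene length. Their unit (TPM or FPKM) is not stated, and read depth is unknown. "Listed higher" and "listed lower" give the authors' call in treated cells. The per-library values were tested with limma on log2(value + 1), which understates the fold of weakly expressed genes, with Benjamini-Hochberg adjustment over all genes of the fit and a threshold of 0.05. Against control this test describes the spread and is no independent evidence, since the genes were called on the same libraries. "Rose" and "fell" are kept for members that passed limma in the main analysis and in each of the other settings run, usually 12 settings in all, among them leaving out each library in turn. For most other members the number of settings passed is given, and for the rest the main limma result or the overlap of the groups.

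Some features of the libraries touch all members. Control replicate 1 had the lowest control value in 59 of the 78 members. Within the treated groups, lactic acidosis replicate 2 was highest in 42 of 65 members and lactosis replicate 2 lowest in 30 of 38. Acidosis replicate 1 was highest in 23 of 28 and acidosis replicate 3 lowest in 19. Library weights were fitted relative to control replicate 1, which was set at 1, and came to 0.799 and 0.776 in the other controls. Ratios of treated to control taken from the per-library values exceeded those of the authors' group means by a median of 0.101 (lactic acidosis), 0.023 (lactosis) and 0.003 (acidosis) on the log2 scale. With values rescaled by these weights, no member changed direction against control. Of 10 biliary markers, 5 were in the lactic acidosis table, 2 in that of lactosis and 1 in that of acidosis, and the keratin gene KRT19 stood between 2799 and 4419 in control. Genes of striated muscle were listed as well, 9 of 12 in lactic acidosis (6 higher, 3 lower) and 7 of 12 in lactosis (all 7 higher). Those listed higher were high in replicate 2 of each medium, with ACTA1 at 19.6 in lactic acidosis replicate 2 and 28.4 in lactosis replicate 2 and at most 1.03 in the controls. The 3 lower in lactic acidosis were TNNI2, TNNT3 and MB, and TNNI2 read 26.2 to 41.0 in control and 12.4 to 14.9 in lactic acidosis. No muscle marker was listed in acidosis. Fibroblast markers were listed in no table, 0 of 5.

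Lactic acidosis had the most listed members. In the authors' deposited table for it, 65 members stood among 4279 genes, 35 higher and 30 lower, so 53.8% were higher and 46.2% lower, against 58.9% and 41.1% of all listed genes. For lactosis, the authors' deposited table held 38 members among 3087 genes, 23 higher and 15 lower, or 60.5% higher and 39.5% lower, against 59.3% and 40.7% of all. For acidosis, the authors' deposited table held 28 members among 1721 genes, 11 higher and 17 lower, so 39.3% were higher against 61.1% of all and 60.7% lower against 38.9% of all. The median log2 fold change of the listed members in the authors' deposited tables was 0.31 for lactic acidosis, 0.40 for lactosis and -0.35 for acidosis, against 0.37, 0.35 and 0.32 over all listed genes. Changes of at least 2-fold in these deposited tables by the authors went downward in 12 of 15 cases in lactic acidosis and 5 of 5 in acidosis, while in lactosis 4 were higher and 3 lower. Of all listed genes, 10.5% were at least 2-fold higher and 15.7% at least 2-fold lower in lactic acidosis, 8.10% and 12.8% in lactosis, and 4.01% and 8.48% in acidosis. As shares in both directions, 23.1%, 18.4% and 17.9% of the members were past 2-fold, against 26.2%, 20.9% and 12.5% of all listed genes in the same order.

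By limma, 55 of 65 members passed in lactic acidosis, 34 higher and 21 lower, beside 86.1% of all its listed genes, 55.3% higher and 30.8% lower. In lactosis 32 of 38 passed, 20 higher and 12 lower, beside 77.7% of all, 46.5% higher and 31.2% lower. In acidosis 18 of 28 passed, 8 higher and 10 lower, beside 60.0% of all, 35.9% higher and 24.2% lower. The acidosis count was the least steady, with 8 when control replicate 2 was left out, 7 without acidosis replicate 2 and 10 without acidosis replicate 3. All listed genes fell as well, from 1033 of 1721 passing to 526, 425 and 586 in the same settings. As shares, 84.6%, 84.2% and 64.3% of the members passed in the 3 media, near those of all listed genes. The libraries of treated and control cells did not overlap in 57 of the 65 members in lactic acidosis (90.2% of all listed genes), 34 of 38 in lactosis (84.0% of all) and 19 of 28 in acidosis (75.5% of all). Treated libraries lay above the controls in 35 of these members in lactic acidosis (58.2% of all listed genes) and below in 22 (32.0% of all). In lactosis 21 lay above (52.1% of all) and 13 below (31.9% of all), and in acidosis 10 above (50.2% of all) and 9 below (25.3% of all).

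**Figure D1:**
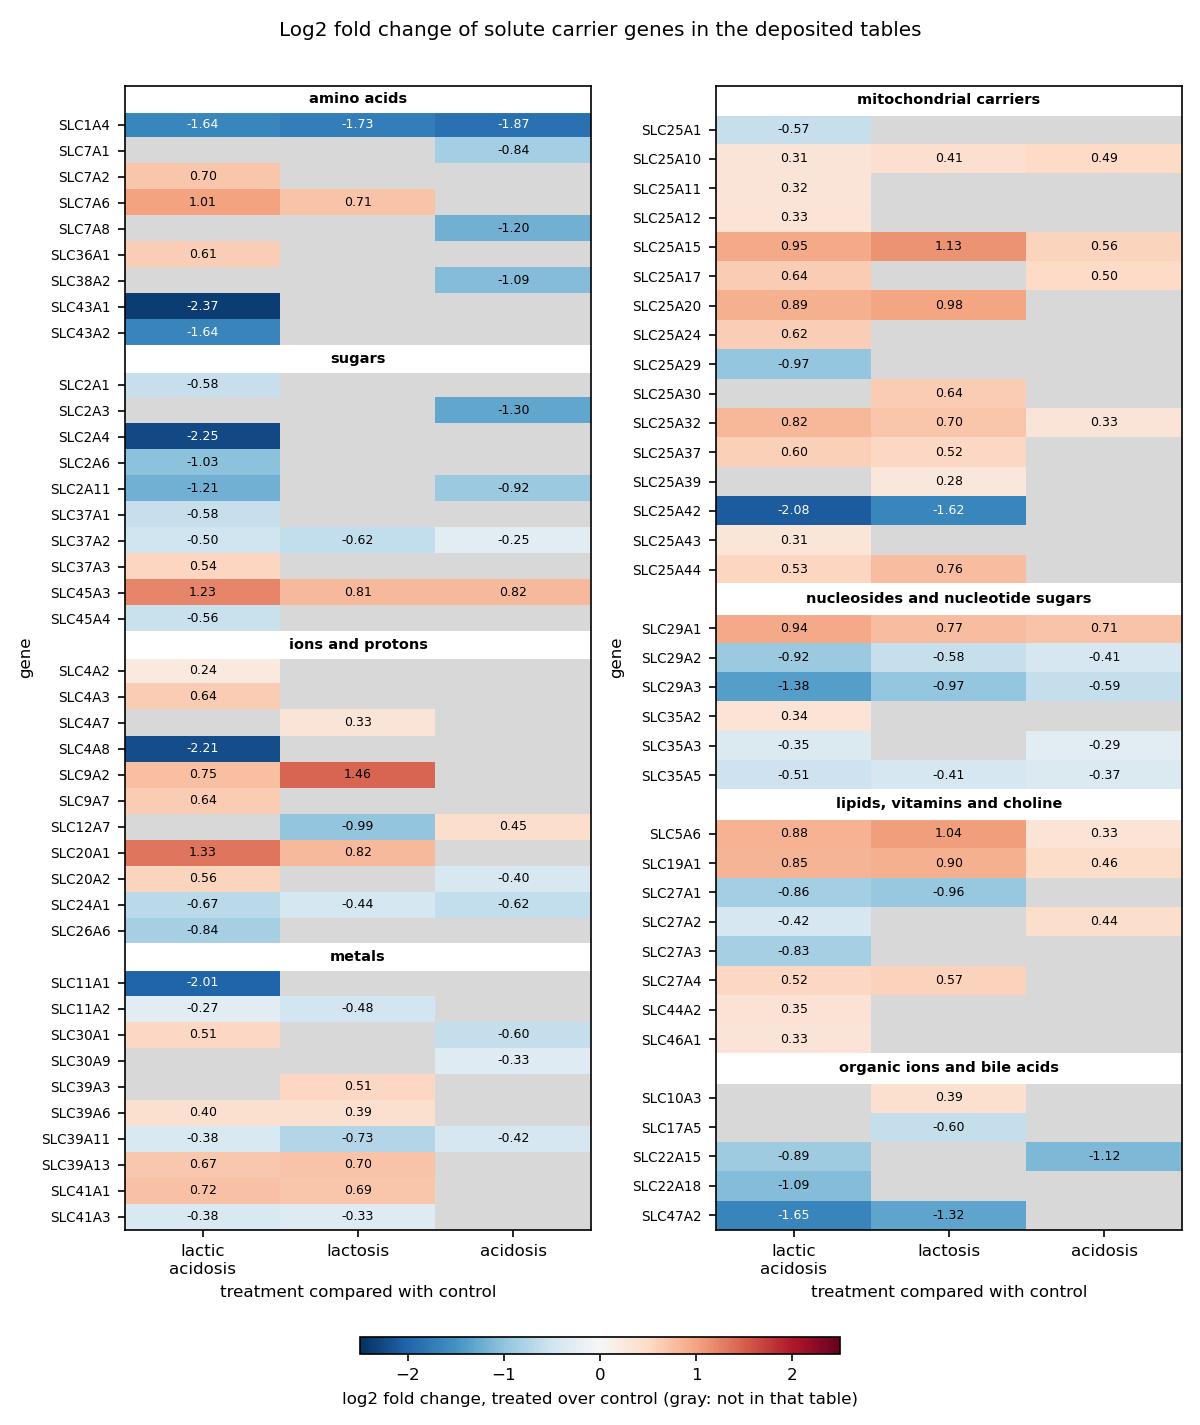
Heat map of the authors' log2 fold change of treated over control for the members reported by name, grouped by substrate class, with 1 column per treatment; red is higher in treated cells, blue is lower, and a gray cell is a member that is not in that table. The mitochondrial carriers are mostly red, and the 4 amino acid carriers of the acidosis column are all blue.

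Of the amino acid carriers, all 4 that were listed in acidosis were lower, beside 38.9% of all genes listed there. In lactic acidosis 3 were listed higher and 3 lower, and in lactosis 1 each way. SLC1A4, an exchanger of alanine, serine and cysteine (chr2:64988477-65023865 in GRCh38, by GENCODE), stood at 33.4, 36.7 and 21.8 in the control libraries. It read 9.06, 11.5 and 11.8 in lactic acidosis, 10.2, 8.58 and 10.2 in lactosis, and 9.94, 8.5 and 7.43 in acidosis. No treated library reached the lowest control in any of the media, and of the members in all 3 tables it was listed with the largest decrease in each. Its log2 fold changes in the authors' deposited tables were -1.64, -1.73 and -1.87 in that order. SLC1A4 fell in each treatment by limma (adjusted p = 6.47e-04, 5.79e-04 and 2.87e-05).

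SLC38A2, a sodium-coupled carrier of small neutral amino acids (chr12:46358189-46372867), had the highest control mean of all members, 377 ± 60.6 (SD, n = 3). Its acidosis libraries read 219.5, 171 and 156, all below the lowest control of 313. It fell in acidosis, with a log2 difference of -1.05 (SE 0.18, limma, adjusted p = 9.28e-04), and it was listed in no other table. SLC7A1, a carrier of arginine and lysine (chr13:29509410-29595688), read 58.9, 96.2 and 68.4 in control and 54.8, 38.1 and 33.0 in acidosis. Its difference of -0.82 passed limma in 11 of 12 settings (adjusted p = 0.00896) and was -0.62 without control replicate 2, where it did not pass (adjusted p = 0.0504). SLC7A8, the LAT2 light chain, was low throughout, at 0.79 to 1.38 in control and 0.32 to 0.79 in acidosis. Its groups overlapped, and it passed in 6 of 11 settings.

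In lactic acidosis the amino acid carriers that fell beside SLC1A4 were of the SLC43 family. SLC43A1, a carrier of branched-chain and aromatic amino acids (chr11:57484534-57515786), read 9.61, 7.47 and 3.29 in control and 1.64, 1.22 and 1.66 in lactic acidosis. Its relative SLC43A2 read 2.49, 2.69 and 1.85 in control and 0.70, 0.83 and 0.93 in lactic acidosis. Both fell, with log2 differences of -1.54 (SE 0.29, adjusted p = 0.00212) and -0.87 (SE 0.14, adjusted p = 0.00122) by limma. For comparison, log2 fold changes in the authors' deposited table were -2.37 for SLC43A1 and -1.64 for SLC43A2.

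The amino acid carriers listed higher were carriers of cationic amino acids and a proton-coupled carrier. SLC7A6, the y+LAT2 light chain, read 6.31, 9.65 and 9.38 in control, 16.0, 21.0 and 17.9 in lactic acidosis, and 13.2, 12.2 and 16.8 in lactosis. It rose in lactic acidosis (1.04, SE 0.18, limma, adjusted p = 0.00148). In lactosis its difference of 0.68 passed in 11 of 12 settings, the exception being 0.56 without lactosis replicate 3 (adjusted p = 0.056). Of its sequence, 55.0% of 75-base windows also occur in SLC7A6OS, a gene on the opposite strand, and whether reads were counted by strand is not given in the sources used here. SLC7A2, a cationic carrier, read 2.17, 4.16 and 4.59 in control and 6.55, 6.79 and 5.37 in lactic acidosis, and passed in 10 of 12 settings. SLC36A1, which exports small amino acids from lysosomes, passed in 9 of 12.

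**Figure D2:**
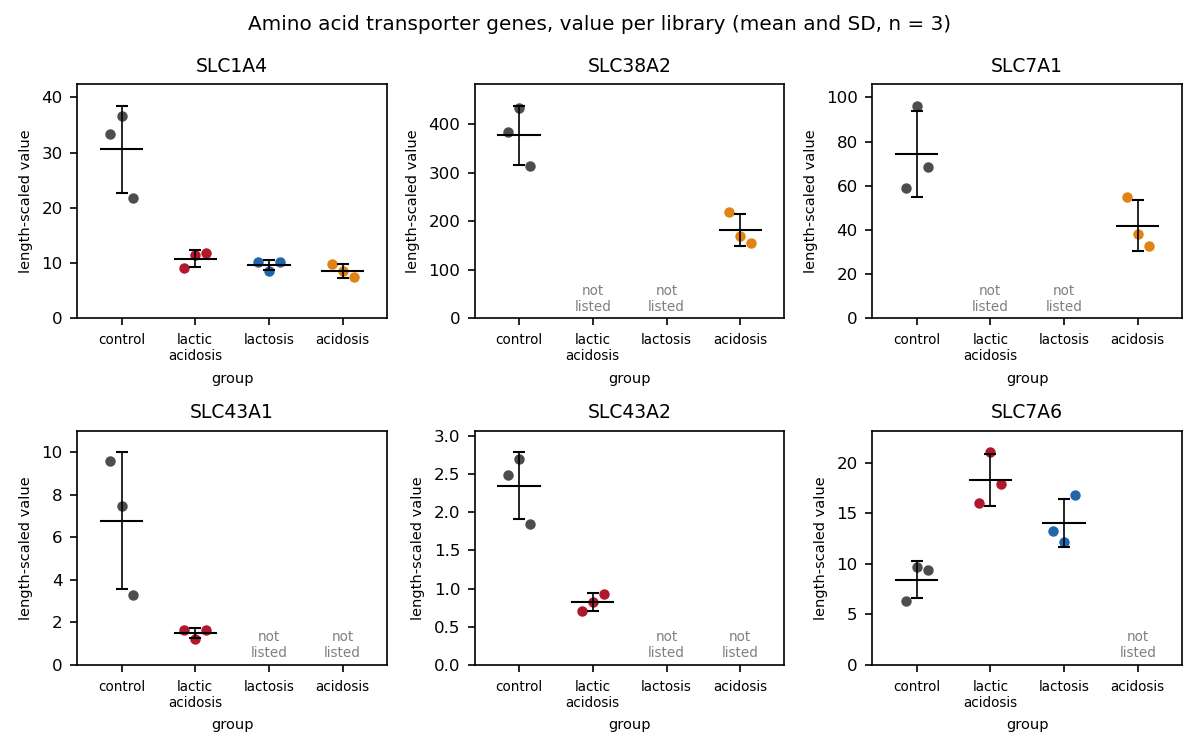
Length-scaled expression value per library for 6 amino acid carriers in the 4 groups (points), with the mean and SD of 3 libraries (bars); each panel has its own axis from 0, and "not listed" marks a group whose table does not hold the gene. The 3 treated groups of SLC1A4 lie between 7.43 and 11.8, below all controls, and SLC38A2 in acidosis lies between 156 and 219.5.

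A list of 9 amino acid carriers known as ATF4 targets was followed separately. In lactic acidosis 2 of the 9 were listed, SLC1A4 and SLC43A1, in lactosis 1, SLC1A4, and in acidosis 3, SLC1A4, SLC7A1 and SLC38A2. Each was listed lower, beside 41.1%, 40.7% and 38.9% of all listed genes, and SLC1A4 recurs in every medium. SLC1A5, SLC3A2 and SLC7A5 are on the same list, are in none of the tables used here, and were not analysed. Because SLC7A1 was lower in acidosis, its promoter is shown for the amino acid response element. The core TGATGNAA, on either strand, occurs in the 300 bases from 250 before to 50 after the RefSeq start in 4 of the 63 members with a RefSeq promoter (SLC7A1, SLC11A1, SLC25A11 and SLC39A11), that is 6.35% against 3.67% of all 27305 promoters of this length. The match in SLC7A1 starts at position 258 from the 5′ end of the sequence and is in capitals. This stretch lies at chr13:29595639-29595938 on the minus strand of GRCh38.p14, from RefSeq.
SLC7A1: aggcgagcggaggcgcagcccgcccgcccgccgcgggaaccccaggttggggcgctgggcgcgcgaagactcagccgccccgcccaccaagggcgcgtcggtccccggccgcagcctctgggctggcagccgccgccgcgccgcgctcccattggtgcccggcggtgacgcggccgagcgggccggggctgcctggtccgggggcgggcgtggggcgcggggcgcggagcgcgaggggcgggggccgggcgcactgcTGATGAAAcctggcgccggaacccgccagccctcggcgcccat

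Sugar carriers were listed lower in 7 of 9 cases in lactic acidosis, 1 of 2 in lactosis and 3 of 4 in acidosis. Of all listed genes, 41.1%, 40.7% and 38.9% were lower. By limma 4, 1 and 2 of the sugar carriers passed as lower, beside 30.8%, 31.2% and 24.2% of all listed genes. SLC2A1, the main glucose carrier GLUT1 (chr1:42925375-42959176), read 137, 222 and 246 in control and 134, 151 and 145 in lactic acidosis. The groups overlapped through control replicate 1. The difference of -0.45 did not pass limma (adjusted p = 0.0689), and it was -0.70 without control replicate 1, where it passed (adjusted p = 1.36e-04). In the authors' deposited table its log2 fold change was -0.58. SLC2A3, the high-affinity glucose carrier GLUT3, read 1.82, 3.11 and 3.33 in control and 1.38, 1.09 and 0.85 in acidosis, and fell there (-0.82, SE 0.19, limma, adjusted p = 0.00504). Of its 75-base windows, 10.0% are shared with SLC2A14, a near copy.

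SLC2A4, the insulin-sensitive GLUT4 of muscle and fat, read 1.94, 1.32 and 1.26 in control and 0.24, 0.45 and 0.33 in lactic acidosis. It fell (-0.90, SE 0.15, limma, adjusted p = 0.00124), and without lactic acidosis replicate 2, the library with the muscle genes, the difference was -0.95 (adjusted p = 0.00642). SLC2A11 fell in lactic acidosis, from 4.99, 4.84 and 3.56 to 2.54, 2.71 and 1.97. In acidosis, where it read 2.64, 2.12 and 2.52, it passed in 11 of 12 settings, and the exception was -0.60 without acidosis replicate 2 (adjusted p = 0.054). SLC2A6, a carrier of lysosomal membranes, fell in lactic acidosis from between 9.83 and 11.3 to between 4.71 and 7.13. SLC37A1, SLC37A2 and SLC37A3 are relatives of the glucose-6-phosphate carrier of the endoplasmic reticulum. SLC37A1 and SLC37A2 were listed lower in lactic acidosis and did not pass limma, while SLC37A3, at 7.32 to 10.2 in control and 12.9 to 16.5 in lactic acidosis, passed in 11 of 12 settings. SLC37A2 was listed lower in lactosis and acidosis as well, and passed in 9 of 12 settings in lactosis and 2 of 12 in acidosis.

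SLC45A3, a prostate-associated sugar carrier (chr1:205657851-205680459), went the other way in every table. It read 1.96, 3.15 and 4.03 in control, 7.31, 7.67 and 7.68 in lactic acidosis, 6.21, 4.64 and 5.18 in lactosis, and 5.98, 5.53 and 4.46 in acidosis. All 9 treated libraries were above the highest control. SLC45A3 rose in lactic acidosis (1.11, SE 0.19, limma, adjusted p = 0.00139). It passed in 11 of 12 settings in lactosis, where the exception was 0.58 without lactosis replicate 1 (adjusted p = 0.068), and in 10 of 12 in acidosis, where the exceptions were 0.59 without acidosis replicate 1 and 0.64 without acidosis replicate 2. Its relative SLC45A4 was listed lower in lactic acidosis, at 5.35 to 5.83 in control and 3.35 to 4.97, and passed in 9 of 12 settings.

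Carriers of ions and protons were listed higher in 7 of 10 cases in lactic acidosis, 3 of 6 in lactosis and 1 of 3 in acidosis. The shares of all listed genes that were higher were 58.9%, 59.3% and 61.1%. Of 20 carriers that set internal pH, 7 were listed in lactic acidosis, 5 of them higher, 2 in lactosis, both higher, and 0 in acidosis. Acidosis had the fewest listed genes, 1721 against 4279 in lactic acidosis, and a carrier not listed was not shown to be unchanged. SLC9A7, an exchanger of the Golgi and endosomes, rose from 9.10, 13.5 and 16.6 to 21.5, 23.4 and 19.9 in lactic acidosis. SLC4A3, a chloride-bicarbonate exchanger, rose from 2.65, 2.92 and 2.75 to 5.10, 4.28 and 4.65. Its relative SLC4A2 was at 29.9 to 39.4 in control and 44.6 to 46.4 in lactic acidosis, and passed in 6 of 12 settings.

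SLC9A2, the exchanger NHE2 of epithelia, was weakly expressed, at 0.38, 0.94 and 0.95 in control. It read 1.26, 1.55 and 1.21 in lactic acidosis and 2.62, 1.68 and 1.93 in lactosis, above the controls in each library. It rose in lactosis (0.81, SE 0.18, limma, adjusted p = 0.00587) and passed in 8 of 12 settings in lactic acidosis. SLC26A6, an exchanger of chloride for bicarbonate and oxalate, fell in lactic acidosis from 17.2, 16.3 and 15.5 to 10.4, 10.0 and 9.16. SLC4A8, a sodium-driven bicarbonate exchanger, had the lowest control mean of all members, 0.43, and read 0.01, 0.06 and 0.05 in lactic acidosis, with 5 of 11 settings passed. SLC4A7, a sodium-bicarbonate cotransporter, was listed higher in lactosis with overlapping groups, 11.2 to 18.7 in control and 18.2 to 21.6 in lactosis, and passed in 2 of 12 settings.

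The phosphate carrier SLC20A1 (PiT-1, chr2:112645857-112663827) had the largest listed increase of the 65 members in lactic acidosis. It read 61.2, 82.8 and 99.7 in control, 207, 235 and 212 in lactic acidosis, and 149, 126 and 160 in lactosis. Every lactic acidosis library was above every lactosis library, and those were above every control. SLC20A1 rose by 1.44 (SE 0.18, limma, adjusted p = 3.47e-04) in lactic acidosis and by 0.85 (SE 0.19, limma, adjusted p = 0.00603) in lactosis. SLC24A1, a potassium-dependent sodium-calcium exchanger, was listed lower in all 3 tables and fell in lactic acidosis, from 14.3, 16.2 and 19.0 to 10.7, 11.1 and 11. It passed in 2 of 12 settings in lactosis and 8 of 12 in acidosis.

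A group of 4 members was listed in opposite directions in different media, and they were grouped for that, so the differences between these media are a description. SLC30A1, the zinc exporter ZnT1 of the plasma membrane (chr1:211571568-211578742), read 15.1, 16.6 and 14.1 in control, 22.4, 24.9 and 24.0 in lactic acidosis, and 10.2, 10.9 and 9.48 in acidosis. All lactic acidosis libraries were above and all acidosis libraries below the controls. By limma it rose in lactic acidosis (0.61, SE 0.13, adjusted p = 0.00363). In acidosis its difference of -0.54 passed in 8 of 12 settings (limma, adjusted p = 0.0140). It did not pass without control replicate 2, acidosis replicate 2 or acidosis replicate 3, where it was -0.48, -0.58 and -0.49, nor with the replicate number as a block (-0.54, limma, adjusted p = 0.0507). SLC12A7, the potassium-chloride cotransporter KCC4 (chr5:1050376-1112035), read 4.62, 5.22 and 6.15 in control, 3.04, 2.19 and 3.00 in lactosis, and 9.10, 6.37 and 6.62 in acidosis. It fell in lactosis (-0.76, SE 0.16, limma, adjusted p = 0.00427), and in acidosis its difference of 0.39 did not pass (limma, adjusted p = 0.0622).

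SLC20A2, the second phosphate carrier PiT-2, read 25.3, 36.7 and 35.7 in control and 50.7, 52.7 and 50.6 in lactic acidosis, where it rose (0.66, SE 0.16, limma, adjusted p = 0.00667). In acidosis it read 27.6, 24.8 and 22.1, overlapping the controls, and did not pass (adjusted p = 0.0817, limma). SLC27A2, a fatty acid carrier and very-long-chain acyl-CoA synthetase, read 13.8, 17.9 and 20.5 in control, 14.3, 14.7 and 12.8 in lactic acidosis, and 23.1, 22.8 and 24.6 in acidosis. It passed in 2 of 12 settings in lactic acidosis and 6 of 12 in acidosis. ATP8B4, on the opposite strand, shares 20.0% of its 75-base windows.

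**Figure D3:**
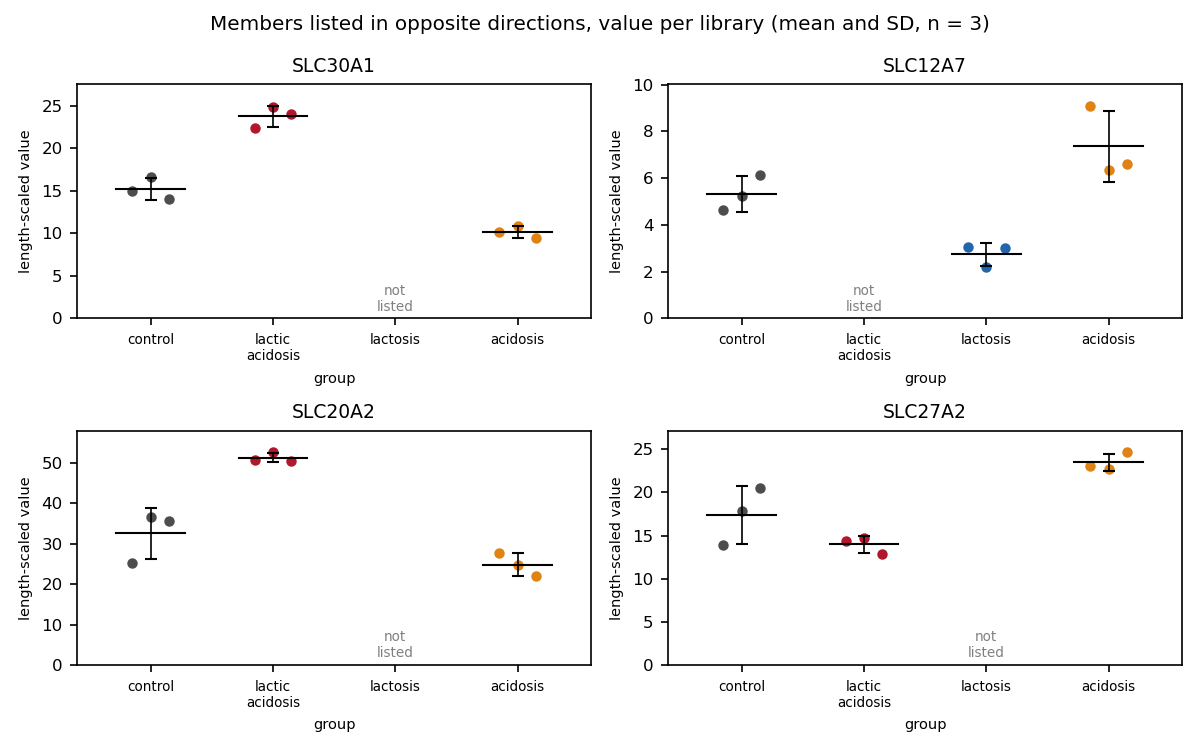
Length-scaled expression value per library (points) of the 4 members listed higher in 1 medium and lower in another, with the mean and SD of 3 libraries (bars); axes start at 0. SLC30A1 lies between 22.4 and 24.9 in lactic acidosis and between 9.48 and 10.9 in acidosis, on either side of the controls, while SLC20A2 in acidosis and SLC27A2 in lactic acidosis overlap them.

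The SLC30A1 promoter is shown because zinc exporters are known targets of the metal sensor MTF1. The core of the metal response element was searched as TGCACNC or TGCGCNC on both strands. It occurs in 29 of the 63 members with a RefSeq promoter, 46.0%, and in 29.4% of all 27305 promoters. In SLC30A1 the motif is present 2 times on the reverse strand, starting at positions 202 and 275 from the 5′ end, in capitals. The stretch is chr1:211579112-211579411 on the minus strand of GRCh38.p14, from RefSeq, upstream of the start that GENCODE gives.
SLC30A1: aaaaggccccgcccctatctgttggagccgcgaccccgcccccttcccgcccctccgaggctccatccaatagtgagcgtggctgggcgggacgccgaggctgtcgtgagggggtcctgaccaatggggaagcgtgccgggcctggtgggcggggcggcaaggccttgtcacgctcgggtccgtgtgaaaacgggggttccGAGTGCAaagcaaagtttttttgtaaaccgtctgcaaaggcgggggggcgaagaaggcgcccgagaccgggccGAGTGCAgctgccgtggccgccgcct

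The metallothioneins, which bind zinc and copper in the cytosol, are known targets of the same sensor, and as near copies of each other their values are uncertain. MT2A read 10975, 11333 and 12827 in control, 18310, 17264 and 18388 in lactic acidosis, and 19430, 21615 and 17188 in lactosis, and in the authors' deposited tables it was listed higher in both, by 0.50 and 0.70 on the log2 scale. MT1X read 1086, 1269 and 1828 in control and 921, 845 and 861 in acidosis, and the authors' deposited table lists it lower there, by -0.67 on the log2 scale. SLC30A1 itself was not in the lactosis table, MT2A was not in the acidosis table, and MT1X was in the acidosis table alone.

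Among the other metal carriers, 4 of 8 members of the whole class were listed higher in lactic acidosis, 4 of 7 in lactosis and 0 of 3 in acidosis. Of all listed genes, 58.9%, 59.3% and 61.1% were higher in the same order. SLC39A13, a zinc carrier of the Golgi, rose in lactic acidosis and lactosis, from 15.4, 21.2 and 17.2 to 30.6, 28.8 and 32.6 and to 29.2, 29.5 and 30.8. SLC39A3, a zinc importer of the plasma membrane, rose in lactosis, from between 34.0 and 36.4 to between 47.0 and 54.3. SLC39A6, another zinc importer, was at 36.0 to 54.4 in control and 60.5 to 70.8 in lactic acidosis, with 10 of 12 settings passed there and 3 of 12 in lactosis. SLC39A11, a further member of this family, was lower in all 3 tables, and read 16.6, 25.4 and 27.0 in control and 14.4, 12.2 and 15.2 in lactosis. It passed in 10 of 12 settings in lactosis, the exceptions being -0.58 without control replicate 2 and -0.57 without lactosis replicate 2, and in 2 of 12 in each of the other media. SLC30A9 was listed lower in acidosis, from 15.6 to 23.4 in control to 14.6 to 18.6, and passed in 2 of 12.

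The magnesium carrier SLC41A1 rose in lactic acidosis, from 5.12, 9.30 and 9.55 to 12.9, 15.6 and 13.4, and passed in 10 of 12 settings in lactosis, at 11.6 to 14.8. Its relative SLC41A3 was listed lower in both and passed in 3 of 12 settings in each. The iron carrier SLC11A2 (DMT1) was listed lower in lactic acidosis, at 22.2 to 30.0 in control and 21.6 to 24.7, and in lactosis, at 15.8 to 22.2, with overlap in both. It passed in 2 of 12 settings in lactic acidosis and 6 of 12 in lactosis. SLC11A1, the NRAMP1 of phagocytes, was below 1 in all libraries, at 0.45 to 0.95 in control and 0.08 to 0.28 in lactic acidosis, and passed in 8 of 11 settings.

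Mitochondrial carriers were the class with the most members listed higher. Of the listed ones, 12 of 15 were higher in lactic acidosis, 9 of 10 in lactosis and 5 of 5 in acidosis, beside 58.9%, 59.3% and 61.1% of all listed genes. By limma 11, 8 and 4 of them passed as higher, beside 55.3%, 46.5% and 35.9% of all listed genes. The class medians of the log2 fold change in the authors' deposited tables were 0.53, 0.67 and 0.50.

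SLC25A15, the ornithine carrier of the urea cycle, rose in lactic acidosis and lactosis, from 10.8, 15.2 and 18.5 to 29.7, 30.9 and 30.8 and to 31.6, 29.7 and 36.8. In acidosis it read 26.1, 19.6 and 19.7, above the controls in each library, and passed in 7 of 12 settings. SLC25A32, a carrier of folate and FAD, read 33.4, 43.4 and 46.1 in control, 77.6, 82.5 and 73.0 in lactic acidosis, 62.7, 68.7 and 70.7 in lactosis, and 55.9, 50.8 and 48.2 in acidosis. It rose in lactic acidosis (0.92, SE 0.15, limma, adjusted p = 0.00125) and in lactosis (0.71, SE 0.16, limma, adjusted p = 0.00524), and passed in 2 of 12 settings in acidosis. A transcript that reads through SLC25A32 shares 95.0% of its 75-base windows, so its values may include reads of that transcript.

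SLC25A20, which brings acylcarnitines into mitochondria, rose in lactic acidosis and lactosis, from 3.78, 5.74 and 6.02 to 11.7, 10.6 and 8.49 and to 11.1, 8.34 and 11.7. SLC25A44, a carrier of branched-chain amino acids, rose in both as well, from between 12.1 and 15.7 to between 20.1 and 23.2 and between 22.9 and 26.6. SLC25A17, a peroxisomal carrier of coenzyme A, rose in lactic acidosis, from between 11.5 and 16.3 to between 20.8 and 23.8, and passed in 7 of 12 settings in acidosis. SLC25A37, the iron carrier mitoferrin-1, rose in lactic acidosis, from between 10.2 and 16.6 to between 21.7 and 22.6, and passed in 9 of 12 settings in lactosis. SLC25A10, the dicarboxylate carrier, was above all controls in each of the 3 media, at 37.4 to 53.2 in control and 58.7 to 66.7 in treated libraries, and passed in 8, 7 and 7 of 12 settings. A read-through transcript shares 57.5% of its windows.

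Other carriers were listed higher as well. In lactic acidosis SLC25A11, the oxoglutarate carrier, passed in 10 of 12 settings, SLC25A24, an ATP and phosphate carrier, in 11, SLC25A43 in 7 and SLC25A12, the aspartate-glutamate carrier, in 3. In lactosis SLC25A30 passed in 10 of 12 and SLC25A39, a glutathione carrier with a control mean of 275, in 2. The 3 carriers that were lower in lactic acidosis carry citrate, basic amino acids and coenzyme A. SLC25A42, the mitochondrial coenzyme A carrier (chr19:19063999-19112888), read 2.27, 2.67 and 2.5 in control, 0.66, 0.64 and 0.57 in lactic acidosis, and 0.93, 0.64 and 0.89 in lactosis, and fell in both (limma, adjusted p = 2.16e-04 and 9.43e-04). SLC25A29, of basic amino acids, fell in lactic acidosis from 10.9, 12.9 and 9.05 to 5.82, 6.29 and 6.16. SLC25A1, the citrate carrier, read 39.5, 43.8 and 45.1 in control and 31.5, 28.1 and 32.5 in lactic acidosis, and passed in 11 of 12 settings, the exception being -0.41 without lactic acidosis replicate 2 (adjusted p = 0.052).

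**Figure D4:**
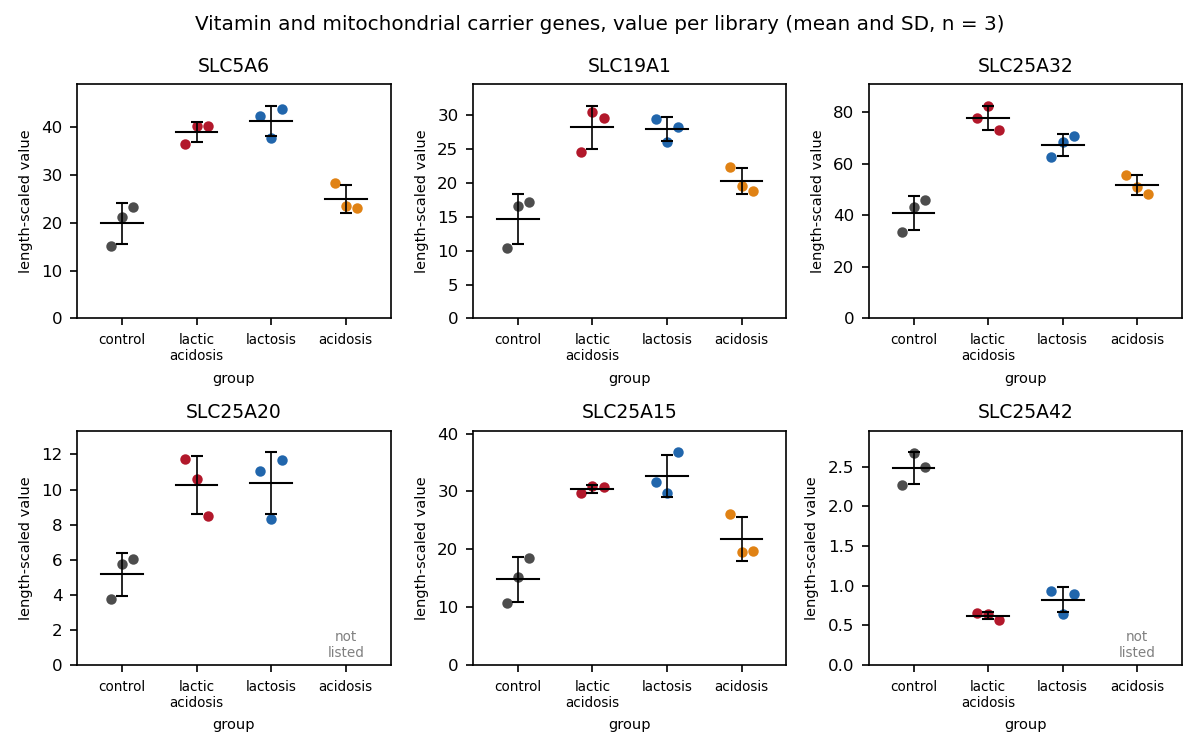
Length-scaled expression value per library (points) of 6 vitamin and mitochondrial carriers in the 4 groups, with the mean and SD of 3 libraries (bars); axes start at 0. SLC5A6 lies between 36.5 and 43.8 in both media with lactate and between 23.1 and 28.4 in acidosis.

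Among the vitamin carriers of the plasma membrane, SLC5A6 and SLC19A1 rose in both media with lactate. SLC5A6, the sodium-coupled carrier of biotin and pantothenate (chr2:27199587-27212958), read 15.1, 21.3 and 23.2 in control, 36.5, 40.2 and 40.2 in lactic acidosis, 42.3, 37.6 and 43.8 in lactosis, and 28.4, 23.5 and 23.1 in acidosis. The acidosis libraries overlapped the controls, and the others did not. It rose in lactic acidosis (0.96, SE 0.17, limma, adjusted p = 0.00164) and lactosis (1.04, SE 0.18, limma, adjusted p = 0.00178), and its acidosis difference of 0.33 did not pass (limma, adjusted p = 0.108). SLC19A1, the reduced folate carrier (chr21:45493572-45544411), read 10.5, 16.5 and 17.2 in control, 24.5, 30.5 and 29.5 in lactic acidosis, 29.4, 26.0 and 28.3 in lactosis, and 22.4, 19.6 and 18.7 in acidosis. All treated libraries were above the controls, and in acidosis it passed in 4 of 12 settings. SLC46A1, the proton-coupled folate carrier, was at 22.9 to 29.6 in control and 34.8 to 39.8 in lactic acidosis, and passed in 9 of 12 settings, with 60.0% of its windows shared with SARM1 on the opposite strand.

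Among lipid carriers, SLC27A4, a fatty acid carrier and acyl-CoA synthetase, rose in lactic acidosis and lactosis, from 42.7, 41.6 and 36.4 to 62.4, 62.7 and 64.5 and to 64.7, 58.7 and 62.0. SLC27A1, of the same family, fell in both, from 4.06, 4.49 and 3.86 to 2.13, 2.78 and 2.54 and to 2.23, 2.57 and 1.7. SLC27A3 was listed lower in lactic acidosis, at 3.53 to 6.29 in control and 2.26 to 3.34, and passed in 8 of 12 settings. SLC44A2, a choline carrier, was at 66.9 to 109 in control and 119 to 130 in lactic acidosis, and passed in 7 of 12.

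Of the nucleoside carriers, SLC29A1, SLC29A2 and SLC29A3 were in all 3 tables, with 1 higher and 2 lower in each. SLC29A1, the equilibrative nucleoside transporter ENT1 of the plasma membrane (chr6:44219505-44234151), read 39.6, 63.9 and 71.0 in control, 112, 126 and 119 in lactic acidosis, 99.8, 94.5 and 106 in lactosis, and 98, 97.2 and 90.8 in acidosis. SLC29A3, the transporter ENT3 of lysosomes (chr10:71319258-71381423), read 32.2, 44.7 and 48.4 in control, 14.9, 17.9 and 19.4 in lactic acidosis, 22.9, 19.1 and 23.8 in lactosis, and 33.1, 26.0 and 25.5 in acidosis. SLC29A1 rose in all 3 media (limma, adjusted p = 0.00254, 0.00964 and 0.00999). SLC29A3 fell in lactic acidosis (-1.20, SE 0.18, limma, adjusted p = 7.26e-04) and lactosis (-0.88, SE 0.18, limma, adjusted p = 0.00371), and passed in 7 of 12 settings in acidosis, where the groups overlapped. SLC29A2, the transporter ENT2, read 22.7, 25.8 and 23.2 in control, 12.2, 15.1 and 13.9 in lactic acidosis, 17.7, 15.1 and 16.8 in lactosis, and 19.9, 17.5 and 17.3 in acidosis. It fell in the first 2 of these media and passed in 4 of 12 settings in acidosis.

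The SLC35A genes encode Golgi carriers of nucleotide sugars and their relatives. SLC35A2, for UDP-galactose, was at 48.2 to 51.6 in control and 64.5 to 68.3 in lactic acidosis, and passed in 11 of 12 settings, the exception being 0.41 without lactic acidosis replicate 1 (adjusted p = 0.053). SLC35A3, for UDP-N-acetylglucosamine, was listed lower in lactic acidosis and acidosis, and SLC35A5 in all 3 media, with overlapping groups and at most 3 of 12 settings passed in each.

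Few carriers of organic ions were listed, and 3 of 3 were lower in lactic acidosis, 2 of 3 in lactosis and 1 of 1 in acidosis. Of all listed genes, 41.1%, 40.7% and 38.9% were lower in the same order. SLC47A2, an exporter of organic cations in exchange for protons (chr17:19678288-19718979), read 7.42, 8.78 and 10.7 in control, 3.14, 2.98 and 3.09 in lactic acidosis, and 3.81, 3.00 and 4.05 in lactosis. It fell in both (-1.28, SE 0.15, and -1.10, SE 0.17, limma, adjusted p = 2.35e-04 and 0.00112). SLC22A15 fell in lactic acidosis and acidosis, from 4.85, 4.92 and 3.58 to 2.72, 2.73 and 2.45 and to 2.74, 1.80 and 1.80. SLC22A18 fell in lactic acidosis, from 35.2, 28 and 27.5 to 14.6, 16.9 and 15.7. SLC17A5, the lysosomal exporter of sialic acid, was at 6.41 to 8.03 in control and 4.62 to 5.01 in lactosis, and passed in 10 of 12 settings. SLC10A3, of the bile acid carrier family, was at 35.1 to 44.9 in control and 51.1 to 61.1 in lactosis, and passed in 9 of 12.

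The treated groups were then set against each other, for members listed in both tables. Lactic acidosis and lactosis differ in acid and buffer with the same lactate. Of 30 members, 4 passed limma, 3 higher and 1 lower in lactic acidosis, which is 13.3% beside 20.4% of the 2344 genes tested, 15.7% higher and 4.78% lower. The difference for SLC20A1 was 0.59 (SE 0.10, 95% interval 0.36 to 0.82, limma, adjusted p = 0.00301). SLC45A3 was higher by 0.44 (0.22 to 0.66, adjusted p = 0.0113, limma) and SLC39A11 by 0.41 (0.21 to 0.62, adjusted p = 0.0112, limma). These 3 passed in all 12 settings. SLC9A2 was lower by -0.39 (-0.64 to -0.13, limma, adjusted p = 0.0382) and passed in 5 of 12 settings. The count was 7 without lactosis replicate 2 and 7 without lactosis replicate 3, where 418 and 663 of all genes tested passed, against 479 in the main analysis. SLC1A4 did not pass, and its interval ran from -0.10 to 0.39.

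Lactic acidosis and acidosis differ in lactate and in pH. Of 22 members, 12 passed limma, 9 higher and 3 lower in lactic acidosis, which is 54.5% beside 48.8% of the 1304 genes tested, 38.7% higher and 10.0% lower. These include SLC30A1 and SLC20A2 on the higher side and SLC27A2 on the lower side, whose direction the opposite listing fixes. Without all genes listed in opposite directions, a check added after the data were seen, 9 of 19 members passed, 47.4%, beside 48.0% of 1284 genes. Among the rest, the vitamin and mitochondrial carriers SLC5A6 (0.63, 95% interval 0.41 to 0.84), SLC25A32 (0.58, 0.39 to 0.77), SLC25A15 (0.48, 0.23 to 0.72) and SLC19A1 (0.46, 0.22 to 0.69) were higher. By limma their adjusted p-values were 6.56e-04, 5.25e-04, 0.00579 and 0.00528. SLC45A3 was higher by 0.44 (adjusted p = 0.00453) and SLC29A1 by 0.32 (adjusted p = 0.00762, limma), while SLC29A3 was lower by -0.66 (adjusted p = 0.00187) and SLC29A2 by -0.39 (adjusted p = 0.00812, limma). SLC25A17 was higher by 0.23 (limma, adjusted p = 0.0491) and, unlike the others, did not pass in every setting, 4 of 12. SLC1A4 (0.02 to 0.57) did not pass.

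Lactosis and acidosis differ in lactate, pH and buffer. Of 16 members, 5 passed limma, 4 higher and 1 lower in lactosis, which is 31.2% beside 23.9% of the 1173 genes tested, 16.4% higher and 7.50% lower. The higher members were again SLC5A6 (0.71, 95% interval 0.47 to 0.94), SLC25A15 (0.57, 0.28 to 0.87), SLC19A1 (0.45, 0.24 to 0.65) and SLC25A32 (0.38, 0.19 to 0.57), with adjusted p-values by limma of 0.00246, 0.0148, 0.00942 and 0.0145. SLC5A6 passed in all 12 settings, SLC25A15 and SLC19A1 in 11 of 12 and SLC25A32 in 9 of 12. The lower member was SLC12A7, whose direction the opposite listing fixes. Without all genes listed in opposite directions, 4 of 15 members passed, 26.7%, beside 23.0% of 1159 genes. Without acidosis replicate 2 the count was 2, SLC5A6 and SLC12A7, and SLC25A15, SLC19A1 and SLC25A32 were at 0.50, 0.43 and 0.37. Of all genes tested, 131 passed in that setting, against 280 in the main analysis. SLC29A1 (-0.10 to 0.24) and SLC1A4 (-0.11 to 0.41) did not pass, and their intervals included 0.

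**Figure D5:**
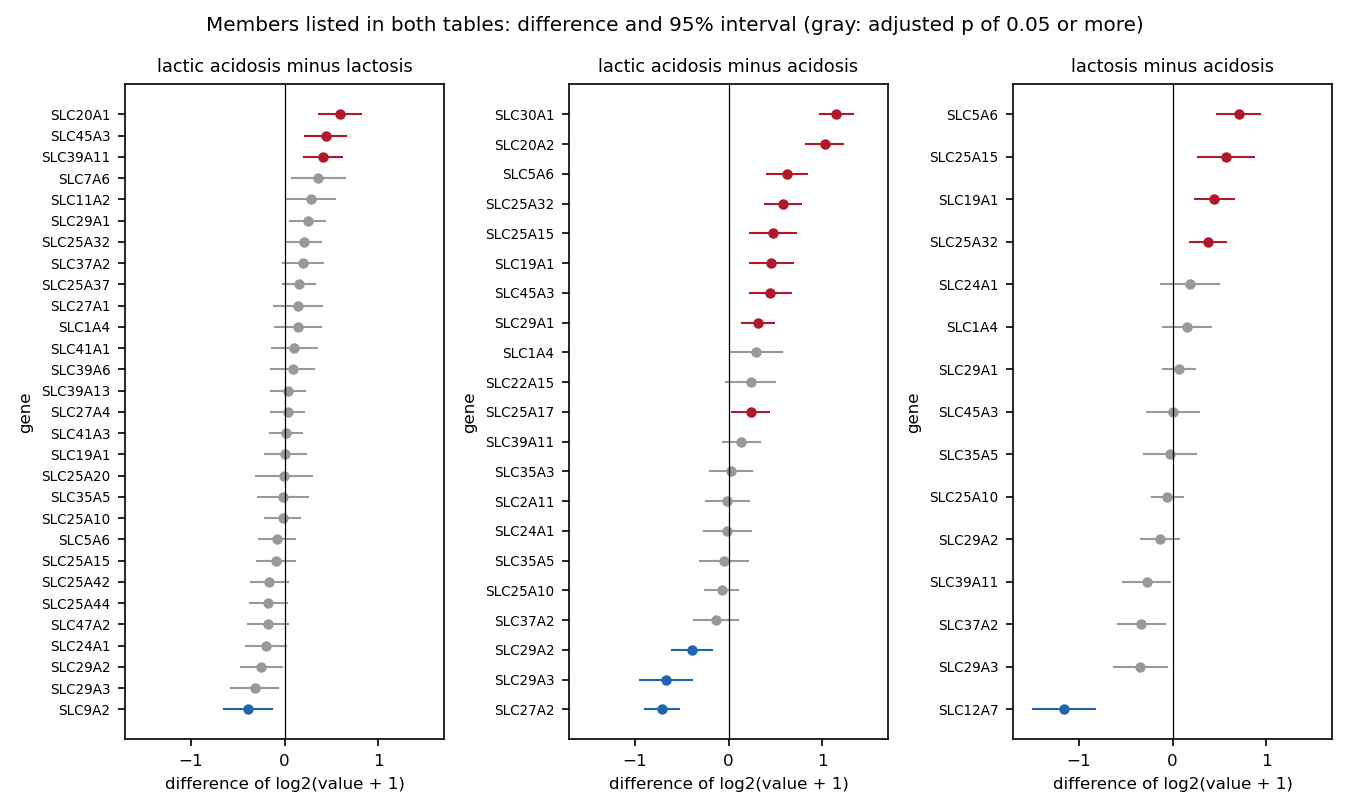
Log2 difference between treated groups for members listed in both tables and reported by name (points) with the 95% confidence interval from limma (lines); red and blue points passed at an adjusted p under 0.05 as higher and lower, and gray ones did not. SLC5A6, SLC19A1, SLC25A15 and SLC25A32 lie to the right of 0 in both comparisons with acidosis, and the members listed in opposite directions (SLC30A1, SLC20A2, SLC27A2 and SLC12A7) lie where that listing puts them.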

How the data were processed

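RNA of 12 libraries was measured by sequencing. STAR and hg38 are named in the submitters' processing notes; the counting tool, its version and its strand setting are not given in the sources used here. The authors deposited 3 tables of called genes, with the column names of the EBSeq test, each setting 1 treatment against the same controls. The deposited per-library values were treated as a signal scaled by gene length (TPM or FPKM not stated). Group means, also deposited as a signal, are counts divided by size factors. Fold changes were deposited as the ratio of control to treated, and were turned round here so that a positive log2 fold change is higher in treated cells. No library totals are given, so depth is unknown. Control values agreed between tables, with a largest difference of 0.

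Samples were grouped by title and treatment label. Limma 3.58.1 in R 4.3.3 tested log2(value + 1) over the 6 libraries of a comparison, without a filter, adjusted over all genes of the table, or over genes in both tables between treatments; the procedure was tested on simulated data. Gene positions are from GENCODE release 29, promoters from RefSeq GRCh38.p14 (63 of 78 members matched), and shared sequence is the percent of a gene's 40 windows, each of 75 bases, found in another gene's transcripts. Other computing used Python 3.11.15 with pandas 2.3.3, numpy 2.4.6, matplotlib 3.10.9 and scipy 1.17.1.

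The members, substrate classes and gene lists were chosen with earlier results of these data known. Values per library follow a rule: up to 2 members a class and direction in each table by fold change, with a group mean of at least 10; up to 5 a direction in all tables; those in opposite directions; 20 genes of interest; and up to 5 a direction between treatments. Of these genes of interest, SLC1A5, SLC3A2, SLC7A5, SLC12A2, SLC39A10, SLC39A14, SLC40A1 and SLC25A5 are in none of the tables used here and were not analysed. The other members are named to account for them; some members are not reported here by name, and counts include them. Alternatives were pseudocounts of 0.1 and 5, a mean value of at least 1, the replicate number as a block, rescaling each library with weights fitted to the authors' group means, leaving out each library, and, for the authors' calls, a probability under 0.01, a 2-fold change or a group mean of at least 10.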

Additional observations from a re-analysis of the deposited data

Results flagged for a closer look

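In 2 members every library of 1 medium lay above all controls and every library of another medium below them. How many of all listed genes do the same was not counted, so this number is not a result about solute carriers. SLC30A1, the zinc exporter ZnT1, has log2 fold changes of 0.51 in lactic acidosis and -0.60 in acidosis in the authors' deposited tables. SLC12A7, the potassium-chloride cotransporter KCC4, has log2 fold changes of -0.99 in lactosis and 0.45 in acidosis in the authors' deposited tables. These members were picked for opposite listing, so the difference between the media was not tested apart from that choice, and its direction in the limma fit between the media is fixed by it. Rescaling the libraries kept each direction.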

How the results depend on the processing

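No log2 difference given above for a member changed sign under any setting run, and the number of passing members stayed within 1.5 times the main value except as follows. In acidosis against control, 18 members passed, against 28 with rescaled libraries, 10 with the replicate number as a block and between 7 and 23 with 1 library left out. Of all listed genes, 1033 passed, against 1671, 656 and between 425 and 1251 in the same settings. Between lactic acidosis and lactosis 4 members passed, against 8 with rescaled libraries (3 higher, 5 lower) and between 3 and 7 with 1 library left out. Of all genes tested, 479 passed there, against 560 and between 259 and 663. Between lactosis and acidosis 5 members passed, against 8 with rescaled libraries (4 higher, 4 lower) and between 2 and 5 with 1 library left out. Of all genes tested, 280 passed there, against 367 and between 131 and 335. With rescaled libraries all 65 listed members passed in lactic acidosis and all 38 in lactosis, as did 97.6% and 97.4% of all listed genes. Leaving out the genes listed in opposite directions, a setting chosen after seeing the data, gave 4, 9 and 4 members for the 3 comparisons between media. Requiring a 2-fold change left 15 listed members for lactic acidosis, 7 for lactosis and 5 for acidosis. Members that passed under every setting numbered 37 of 65 for lactic acidosis, 20 of 38 for lactosis, 6 of 28 for acidosis, 3 of 30 between lactic acidosis and lactosis, 11 of 22 between lactic acidosis and acidosis, and 2 of 16 between lactosis and acidosis. The same count was not made over all genes, so whether these numbers are low or high for the series is unknown. The acidosis 6 include SLC1A4, SLC38A2, SLC2A3, SLC22A15 and SLC29A1. The cause of these changes was not tested. Depth is unknown, so the precision of weakly expressed members such as SLC4A8 and SLC11A1 cannot be given.

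The replicate numbers did not pair the samples: same-numbered libraries of 2 groups correlated between -0.40 and 0.19 in their deviations over 1042 genes. With the replicate number as a block, 59 members passed for lactic acidosis, 29 for lactosis, 10 for acidosis, 3 between lactic acidosis and lactosis, 11 between lactic acidosis and acidosis and 6 between lactosis and acidosis. Of all genes tested, 3682 of 4279, 2138 of 3087, 656 of 1721, 335 of 2344, 590 of 1304 and 240 of 1173 passed in the same order.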

Other observations

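Genes of solute transport outside the symbol rule were followed on a list of 60, and those named below were chosen after their values were seen. In lactic acidosis 20 were listed, 14 higher and 6 lower, in lactosis 13, 11 higher and 2 lower, and in acidosis 7, 4 higher and 3 lower. Of all listed genes, 58.9%, 59.3% and 61.1% were higher in the same order. SLCO4A1, an organic anion carrier, was above the controls in every treated library, at 4.16, 7.51 and 8.17 in control, 12.8, 14.2 and 15.1 in lactic acidosis, 10.7, 10.1 and 13.3 in lactosis, and 14.6, 14.3 and 12.8 in acidosis. The authors' deposited tables give it log2 fold changes of 1.01, 0.78 and 1.09. ATP1B1 and ATP1B3, beta subunits of the sodium pump that maintains the gradient many carriers use, were listed higher in all 3 media. ATP1B1 has log2 fold changes of 0.88, 0.61 and 0.50 and ATP1B3 of 0.65, 0.61 and 0.38 in the authors' deposited tables.

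MPC1, a subunit of the mitochondrial pyruvate carrier, was listed lower in lactic acidosis, at 54.9, 44.6 and 43.4 in control and 24.5, 29.4 and 25.9 in treated libraries, and the authors' deposited table has it at -0.99 on the log2 scale. FLVCR2, a carrier once described for heme, read 2.52, 4.36 and 5.03 in control and 1.61, 1.52 and 1.36 in lactic acidosis. SFXN1, the mitochondrial serine carrier, read 39.3, 71.9 and 86.0 in control and 113, 123 and 114 in lactic acidosis. SLCO1B3, an uptake carrier of the liver, read 8.06, 11.8 and 12.6 in control and 22.9, 25.6 and 21.8 in lactic acidosis. In all 4 the groups did not overlap, as in 90.2% of all genes listed in lactic acidosis.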
